A study of Mus musculus with 18 samples.

Results

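The insulin receptor signalling components described here are 10 genes taken by symbol: Insr, Irs1, Irs2, Pik3r1, Akt1, Akt2, Foxo1, Tbc1d4, Grb10 and Grb14. All 10 were listed in each of 18 mouse expression tables, among 25209 gene symbols in the tables of inguinal white adipose tissue (iWAT) and 24825 in those of cultured cells. Polyadenylated RNA was sequenced from 6 groups of 3 samples: NFIA-Tg and WT iWAT, NFIA-Tg and WT cells at day 7 of adipocyte differentiation, and NFIA-Tg and WT cells at day 0. NFIA-Tg mice carry a transgene for the transcription factor NFIA, and WT mice are their wild-type counterparts; the sources used here do not give the promoter of the transgene, the strain, the age and sex of the mice or any pooling. The cultured cells came from the stromal vascular fraction of inguinal fat. Cells of both genotypes received isobutylmethylxanthine, indomethacin, dexamethasone, insulin, T3 and rosiglitazone for the first 48 h and then insulin, T3 and rosiglitazone, so every day 7 sample had been kept with insulin and with rosiglitazone, an agonist of PPARγ. The labels do not say whether the 3 samples of a group came from separate animals or cultures, so p-values reflect the spread among the samples at hand, possibly technical.

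Insulin binding activates the tyrosine kinase of its receptor, which phosphorylates insulin receptor substrates. The substrates recruit phosphoinositide 3-kinase, whose lipid product brings the AKT kinases to the membrane and activates them. In adipocytes AKT drives glucose uptake by phosphorylating TBC1D4, which releases vesicles carrying the glucose transporter encoded by Slc2a4, and it keeps FOXO1 out of the nucleus. The adaptors GRB10 and GRB14 bind the activated receptor and restrain its signal.

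Nfia itself followed the labels in iWAT and at day 0 but not at day 7. It had 166, 99.6 and 157 FPKM (fragments per kilobase, scaled for depth) in NFIA-Tg iWAT and 3.73, 4.19 and 3.94 FPKM in WT iWAT. At day 7 it had 6.44, 7.32 and 7.203 FPKM in cultures labelled NFIA-Tg and 12.5, 13.04 and 12.01 FPKM in cultures labelled WT, and at day 0 it had 11.3, 12.5 and 11.9 FPKM in cultures labelled NFIA-Tg and 6.42, 6.3004 and 6.51 FPKM in those labelled WT. Every direction given below for day 7 therefore rests on libraries labelled NFIA-Tg that had less Nfia than those labelled WT. Whether the day 7 labels are exchanged was not tested; if they were, the day 7 genotype differences would change sign, and the differentiation responses and the contrasts of day 7 with day 0 and with iWAT would take other values. Recovered reads ran from 16772594 to 28625625 per culture library, and the depth of the iWAT libraries is unknown. Levels are compared only within iWAT or within the cultures, because the 2 kinds of table were made with different gene sets. The 10 mature adipocyte markers summed to 29813 to 40023 FPKM in NFIA-Tg iWAT, 31286 to 35617 in WT iWAT, 25600.3 to 29152 in NFIA-Tg and 24644 to 29034 in WT cultures at day 7, and 40.99 to 52.4 in NFIA-Tg and 12.8 to 14.9 in WT cultures at day 0. Fabp4 made up most of the iWAT sums, averaging 23043 FPKM in NFIA-Tg and 20331 FPKM in WT iWAT. Lep, an adipocyte hormone gene, was below 0.1 FPKM in all day 7 libraries. In the cultures the macrophage list summed to at most 8.71 FPKM and the endothelial list to at most 11.4 FPKM, with C1qa, C1qb and Robo4 among the genes under 0.1 FPKM in every culture group.

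Each genotype difference compared NFIA-Tg with WT, and each differentiation difference compared day 7 with day 0, by limma on log2(FPKM + 1); a gene was called at a Benjamini-Hochberg adjusted p under 0.05 over all genes tested. In iWAT, 3 of the 10 genes were called higher in NFIA-Tg (Irs1, Akt2 and Tbc1d4) and 0 lower, where 5.96% and 5.44% of 12396 genes were called (11.4% in either direction); 5 of the 10 had an unadjusted p under 0.05, all with a positive difference, as had 3543 of the 12396 genes in either direction. The iWAT count of 3 became 1 without replicate 2 of NFIA-Tg or any WT replicate, 2 without replicate 3 of NFIA-Tg and 4 without its replicate 1. At day 7, 3 were called higher (Akt2, Grb10 and Grb14) and 6 lower (Irs1, Irs2, Pik3r1, Akt1, Foxo1 and Tbc1d4) in cultures labelled NFIA-Tg, where 29.8% and 51.1% of 12553 genes were called (80.9% in either direction). At day 0, 5 were called higher and 2 lower, where 28.1% and 34.9% of genes were called (63.0% in either direction). The shares called among all genes are so large in the cultures that the member counts there lie near the background. The median log2 difference of the 10 genes was 0.43 in iWAT, -0.58 at day 7 and 0.14 at day 0, beside 0.05, -0.17 and -0.03 for all genes tested. With median-of-ratios scaling the all-gene median at day 7 moved to -0.06, so a day 7 difference is also to be read against a shift of that size.

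**Figure D1:**
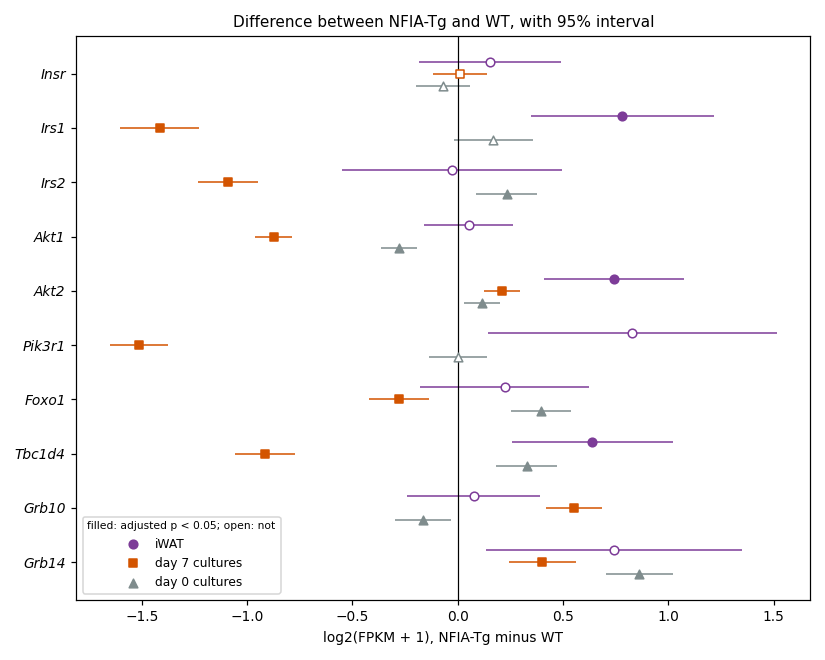
Difference of NFIA-Tg from WT on the log2(FPKM + 1) scale for each of the 10 genes in iWAT, at day 7 and at day 0; bars are 95% confidence intervals from limma and filled symbols mark adjusted p under 0.05. Irs1 (0.78 and -1.42) and Tbc1d4 (0.64 and -0.92) lie on opposite sides of 0 in iWAT and at day 7, while Insr stays near 0 in all 3 comparisons; culture groups are named by their labels.

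Some markers of other cells differed with genotype beside these results. In iWAT the summed endothelial list (8 of 8 genes listed, 5 called lower, beside 5.44% of all genes) ran from 412 to 568 FPKM in NFIA-Tg and 786 to 862 in WT. The 7 skeletal muscle markers summed to 13.3 to 41.98 in NFIA-Tg and 124 to 183 in WT. Of these, 3 were tested and only Acta1 was called lower. Acta1 averaged 22.1 FPKM in NFIA-Tg and 135 FPKM in WT and made up most of that sum. The 9 macrophage markers summed to 461 to 549 FPKM in NFIA-Tg and 422 to 558 in WT. The 9 preadipocyte markers summed to 329 to 460.0 (NFIA-Tg) and 359.5 to 467 (WT), the 7 lymphocyte markers to 2.14 to 9.79 (NFIA-Tg) and 5.19 to 18.7 (WT), and the 5 markers of dividing cells to 2.83 to 4.67 (NFIA-Tg) and 7.52 to 11.3 (WT). In the cultures the preadipocyte list summed to 187 to 256 FPKM (labelled NFIA-Tg) and 679 to 815 (WT) at day 7, and 2937 to 3496 (NFIA-Tg) and 1839 to 2155 (WT) at day 0. The dividing cell list summed to 95.8 to 101 (labelled NFIA-Tg) and 296 to 310.4 (WT) FPKM at day 7, and 52.5 to 56.96 (labelled NFIA-Tg) and 155 to 158 (WT) at day 0. Of the 10 mature adipocyte markers in iWAT, 1 was called higher and 0 lower in NFIA-Tg, beside 5.96% and 5.44% of all genes. That was Plin1 (log2 difference 0.49, limma, adjusted p = 0.0447). Adipoq (-0.46), Lipe (-0.40) and Lep (-0.46) had an unadjusted p under 0.05 there but were not called. Of the 9 mature adipocyte markers tested in the cultures, 5 were called lower and 0 higher at day 7 in cultures labelled NFIA-Tg (5 at an unadjusted p under 0.05, limma). Of all 12553 genes, 51.1% were called lower and 29.8% higher there, and 10256 had an unadjusted p under 0.05. At day 0, 6 of these markers were called higher and 0 lower (6 at an unadjusted p under 0.05). The shares of all genes there were 28.1% higher and 34.9% lower, and 8298 had an unadjusted p under 0.05. The part of these cells in the differences of the insulin signalling genes was not tested, and fewer cells of a type cannot be told apart from less RNA per cell in such bulk samples.

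Insr, the receptor, was not called between genotypes in iWAT or at either culture time, and was higher at day 7 than at day 0. Its levels were 11.7, 12.4 and 10.8 FPKM in NFIA-Tg iWAT and 8.402, 12.4 and 10.6 FPKM in WT iWAT. In the cultures they were 22.3, 25.4 and 27.2 FPKM (labelled NFIA-Tg) and 24.5, 25.2 and 24.4 FPKM (WT) at day 7, and 8.38, 8.43 and 8.02 FPKM (labelled NFIA-Tg) and 8.77, 8.39 and 9.03 FPKM (WT) at day 0. Genotype ranges overlapped in iWAT and at both culture times, whereas every day 7 sample was above every day 0 sample. The genotype difference was 0.15 in iWAT (95% interval -0.18 to 0.49, adjusted p = 0.527), 0.01 at day 7 (-0.12 to 0.14, adjusted p = 0.885) and -0.07 at day 0 (-0.20 to 0.06, adjusted p = 0.334). Insr rose with differentiation by 1.48 ± 0.06 log2 in cultures labelled NFIA-Tg and by 1.40 ± 0.06 in WT cultures (adjusted p = 5.59e-11 and 1.77e-10). The genotype difference in iWAT lay 0.14 above that at day 7 (95% interval -0.22 to 0.50, adjusted p = 0.484), a sign that turned with median-of-ratios scaling (-0.07). The differentiation response differed by 0.08 between genotypes (95% interval -0.10 to 0.26, adjusted p = 0.416). With median-of-ratios scaling the day 7 genotype difference was 0.14 and was called (adjusted p = 0.0428), and without replicate 1 of the day 7 cultures labelled NFIA-Tg the difference in response was 0.15 (adjusted p = 0.0419).

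Irs1 and Irs2 encode receptor substrates and were both lower at day 7 in cultures labelled NFIA-Tg. Irs1 had 5.25, 5.47 and 6.01 FPKM in these and 16.005, 17.3 and 16.3 FPKM in WT cultures (log2 difference -1.42 ± 0.09, adjusted p = 8.51e-09). Irs2 had 9.59, 8.97 and 8.22 FPKM in the cultures labelled NFIA-Tg and 21.1, 20.3 and 18.99 FPKM in WT cultures (log2 difference -1.09 ± 0.07, adjusted p = 8.56e-09). The genotypes did not overlap for either gene at day 7. In iWAT Irs1 went the other way, with 6.22, 10.2 and 10.3 FPKM in NFIA-Tg and 5.23, 4.64 and 4.14 FPKM in WT tissue and no overlap (log2 difference 0.78 ± 0.19, adjusted p = 0.0361). This iWAT call was lost on leaving out most single libraries: the adjusted p was 0.121 and 0.106 without replicates 2 and 3 of NFIA-Tg, 0.0538, 0.0861 and 0.114 without replicates 1, 2 and 3 of WT, and 0.0840 with no filter on low values. Irs2 in iWAT had 34.3, 17.8 and 19.6 FPKM in NFIA-Tg and 27.4, 21.2 and 22.1 FPKM in WT tissue, with overlap (log2 difference -0.03 ± 0.23, adjusted p = 0.953, 95% interval -0.55 to 0.50). Irs3, a further substrate gene outside the 10, averaged 28.8 FPKM in NFIA-Tg and 35.5 FPKM in WT iWAT and was not called (limma, adjusted p = 0.503). The genotype difference in iWAT exceeded that at day 7 by 2.20 log2 for Irs1 (adjusted p = 4.77e-06) and by 1.06 for Irs2 (adjusted p = 0.00510).

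At day 0 the genotype differences of both substrates were smaller in size than at day 7. Irs1 had 6.35, 8.702 and 7.36 FPKM in cultures labelled NFIA-Tg and 6.503, 6.85 and 6.13 FPKM in WT cultures, with overlap (log2 difference 0.17 ± 0.09, adjusted p = 0.104; without replicate 1 of the NFIA-Tg group 0.27, adjusted p = 0.00916, and with median-of-ratios scaling 0.21, adjusted p = 0.0398). Irs2 had 2.99, 3.59 and 3.51 FPKM in cultures labelled NFIA-Tg and 2.696, 2.65 and 2.78 FPKM in WT cultures, with no overlap (log2 difference 0.23 ± 0.07, adjusted p = 0.00847). With differentiation Irs1 fell in cultures labelled NFIA-Tg (log2 difference -0.36 ± 0.09, adjusted p = 0.00162) and rose in WT cultures (log2 difference 1.23 ± 0.09, adjusted p = 2.53e-08), and the difference between these responses was -1.58 (adjusted p = 1.39e-07). Irs2 rose in both, by 1.19 in cultures labelled NFIA-Tg and 2.51 in WT cultures, a difference of -1.32 (adjusted p = 6.79e-08). The genotype difference at day 7, this contrast and that of iWAT with day 7 share the day 7 libraries.

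**Figure D2:**
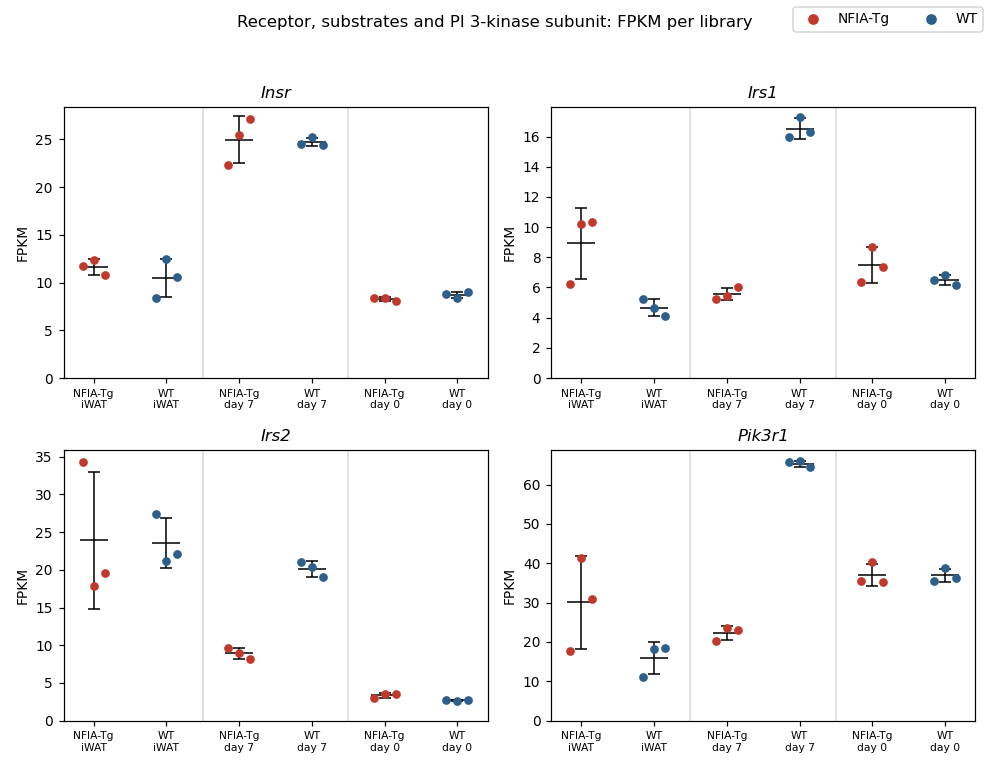
FPKM of Insr, Irs1, Irs2 and Pik3r1 in each of the 18 samples, with NFIA-Tg left of WT within iWAT, day 7 and day 0; points are samples, bars the mean and SD of 3. WT day 7 cultures stand highest of the culture groups for Irs1, Irs2 and Pik3r1 (means 16.5, 20.1 and 65.3), and iWAT values come from another kind of table than the cultures.

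The ratio of Irs2 to Irs1 in a library does not depend on its depth. In iWAT it was 5.52, 1.75 and 1.904 in NFIA-Tg and 5.23, 4.57 and 5.32 in WT tissue (difference -0.93 log2, exact permutation test, two-sided p = 0.40). Replicate 1 of NFIA-Tg lay above every WT sample, and replicates 2 and 3 lay below every WT sample. At day 7 it was 1.83, 1.64 and 1.37 in cultures labelled NFIA-Tg and 1.32, 1.17 and 1.17 in WT cultures, with no overlap (difference 0.39, exact permutation p = 0.10, the smallest that 3 against 3 allow). At day 0 the difference was 0.12 (exact permutation p = 0.30).

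The promoter windows of Irs1 and Irs2 are shown because both genes were lower at day 7 in cultures labelled NFIA-Tg and both windows hold an E-box (CACGTG, its own reverse complement). They are the 250 bases before the annotated start, from RefSeq on build GRCm38.p6, minus strand, with the E-box in capitals: Irs1 at chr1:82291440-82291689 and Irs2 at chr8:11008930-11009179.
Irs1: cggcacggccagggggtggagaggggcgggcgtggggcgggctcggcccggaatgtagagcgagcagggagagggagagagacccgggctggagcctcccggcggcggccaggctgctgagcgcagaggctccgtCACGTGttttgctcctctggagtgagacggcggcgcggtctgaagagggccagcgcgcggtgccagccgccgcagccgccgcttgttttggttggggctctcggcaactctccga
Irs2: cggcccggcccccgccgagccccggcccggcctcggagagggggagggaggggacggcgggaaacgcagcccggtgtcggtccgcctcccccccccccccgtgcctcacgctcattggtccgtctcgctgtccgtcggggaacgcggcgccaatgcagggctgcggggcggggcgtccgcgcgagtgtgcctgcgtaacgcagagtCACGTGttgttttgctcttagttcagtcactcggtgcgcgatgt
The E-box began 115 bases before the start in Irs1 and 44 bases before it in Irs2. Of 32851 windows of the same 300-base length (250 bases before to 50 after a start), 7.15% held it, and it was searched after these windows had been read. RefSeq windows were found for 9 of the 10 genes, 15 windows in all, and not for Insr.

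Pik3r1, which encodes the main regulatory subunit of phosphoinositide 3-kinase, was lower at day 7 in cultures labelled NFIA-Tg. It had 20.2, 23.5 and 23.1 FPKM in these and 65.7, 65.9 and 64.5 FPKM in WT cultures (log2 difference -1.51 ± 0.06, adjusted p = 2.76e-10), a ratio of means of 0.341. In day 0 cells it had 35.4, 40.2 and 35.4 FPKM in cultures labelled NFIA-Tg and 35.6, 38.9 and 36.2 FPKM in WT cultures, and the ranges overlapped (0.00, 95% interval -0.14 to 0.14, adjusted p = 0.983). With differentiation it fell in cultures labelled NFIA-Tg (log2 difference -0.71 ± 0.06, adjusted p = 2.12e-07) and rose in WT cultures (log2 difference 0.81 ± 0.06, adjusted p = 7.83e-08), a difference of -1.52 (adjusted p = 1.30e-08). In iWAT it had 17.7, 41.4 and 31.04 FPKM in NFIA-Tg and 11.2, 18.2 and 18.5 FPKM in WT tissue. The lowest NFIA-Tg sample lay inside the WT range, and the difference of 0.83 ± 0.30 was not called (limma, adjusted p = 0.112); without that sample, replicate 1, it was 1.15 (adjusted p = 0.0260). In iWAT, replicate 1 of each genotype had the lowest Pik3r1 and the highest Irs2 of its group. The genotype difference in iWAT exceeded that at day 7 by 2.34 (adjusted p = 0.000144).

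Of the AKT kinases, Akt1 is widely expressed and Akt2 is the isoform known for insulin-stimulated glucose uptake in fat and muscle. Akt2 was higher in NFIA-Tg iWAT, with 225, 178 and 171 FPKM against 97.04, 125 and 119 FPKM in WT iWAT and no overlap (log2 difference 0.74 ± 0.14, adjusted p = 0.0167). It was also higher in cultures labelled NFIA-Tg at day 7, at 59.4, 61.7 and 60.7 FPKM against 52.2, 54.05 and 50.6 FPKM in WT cultures (log2 difference 0.21 ± 0.04, adjusted p = 0.000273), a ratio of means of 1.16. Day 0 levels were 20.7, 21.04 and 20.8 FPKM in cultures labelled NFIA-Tg and 20.03, 19.2 and 18.4 FPKM in WT cultures (log2 difference 0.11 ± 0.04, adjusted p = 0.0219), a call that was lost without NFIA-Tg replicate 2 or 3 or WT replicate 2 or 3 (adjusted p 0.0521 to 0.104). Akt1 had 61.8, 59.2 and 55.7 FPKM in NFIA-Tg iWAT and 59.4, 54.9 and 55.97 FPKM in WT iWAT, with overlap (log2 difference 0.05 ± 0.09, adjusted p = 0.745, 95% interval -0.16 to 0.26).

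At day 7 Akt1 was lower in cultures labelled NFIA-Tg, with 32.01, 30.3 and 30.9 FPKM against 57.5, 56.2 and 59.8 FPKM in WT cultures (log2 difference -0.87 ± 0.04, adjusted p = 6.13e-10). At day 0 it was also lower, with 82.6, 78.5 and 82.4 FPKM in cultures labelled NFIA-Tg against 102, 96.97 and 96.9 FPKM in WT cultures (log2 difference -0.28 ± 0.04, adjusted p = 5.82e-05). Neither time showed overlap between genotypes. With differentiation Akt1 fell by 1.36 log2 in cultures labelled NFIA-Tg and by 0.76 in WT cultures, and the response differed by -0.60 (adjusted p = 9.97e-07). Akt2 rose by 1.5 in cultures labelled NFIA-Tg and by 1.40 in WT cultures, a difference of 0.10 (95% interval -0.02 to 0.22, adjusted p = 0.133; 0.19, adjusted p = 0.00988, with median-of-ratios scaling). The genotype difference in iWAT exceeded that at day 7 by 0.93 for Akt1 (adjusted p = 4.04e-06) and by 0.53 for Akt2 (adjusted p = 0.0124; 0.32, adjusted p = 0.101, with median-of-ratios scaling).

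Read as a ratio within each library, Akt2 over Akt1 was higher under the NFIA-Tg label in iWAT and at both culture times. It was 3.65, 3.01 and 3.07 in NFIA-Tg iWAT and 1.63, 2.28 and 2.13 in WT iWAT (log2 difference 0.69). At day 7 it was 1.86, 2.04 and 1.96 in cultures labelled NFIA-Tg and 0.907, 0.962 and 0.847 in WT cultures (log2 difference 1.11). At day 0 it was 0.251, 0.268 and 0.253 in cultures labelled NFIA-Tg and 0.196, 0.198 and 0.1899 in WT cultures (log2 difference 0.40). The genotypes did not overlap in any of these comparisons, each with a two-sided exact permutation p of 0.10, the smallest that 3 against 3 allow. Akt2 exceeded Akt1 in both genotypes of iWAT and in day 7 cultures labelled NFIA-Tg, and lay below it in the other culture groups. Because the iWAT and culture tables were made with different gene sets, the size of the ratio was not compared between them.

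**Figure D3:**
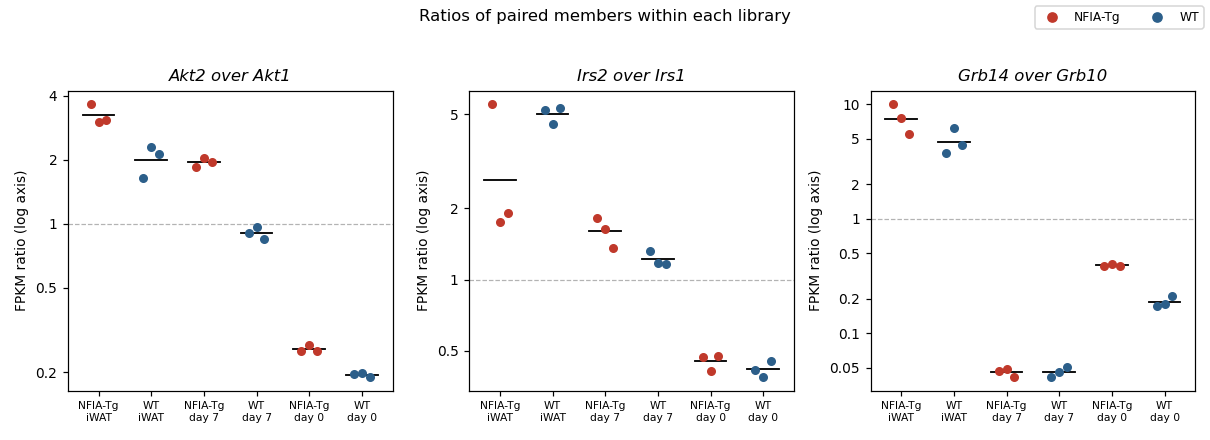
Ratios of FPKM within each library, Akt2 over Akt1, Irs2 over Irs1 and Grb14 over Grb10, on a log axis; points are samples, horizontal lines geometric means and the dashed line equal levels, with NFIA-Tg left of WT within iWAT, day 7 and day 0. Akt2 over Akt1 is 1.86 to 2.04 in day 7 cultures labelled NFIA-Tg and 0.847 to 0.962 in WT cultures, without overlap. The iWAT ratios come from another kind of table than those of the cultures.

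A promoter window of Akt1 is shown because only it, of the 15 windows, held the FoxO core motif (TGTTTAC, both strands searched). Of all windows, 3.65% held that motif. Another RefSeq window of Akt1, chr12:112674227-112674526, did not hold it. The stretch shown is the 250 bases before a RefSeq start at chr12:112674885-112675134, GRCm38.p6, minus strand, with the motif in capitals beginning 161 bases before the start.
Akt1: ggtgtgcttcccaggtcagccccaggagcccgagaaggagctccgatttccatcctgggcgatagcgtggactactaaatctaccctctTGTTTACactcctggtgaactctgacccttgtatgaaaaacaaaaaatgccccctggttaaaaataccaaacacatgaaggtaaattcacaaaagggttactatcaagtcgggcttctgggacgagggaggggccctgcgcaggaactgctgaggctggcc
The half-site of the NFI family (TTGGCA, both strands, held by 14.1% of windows) was found 234 and 184 bases before a start in windows of Akt2, of which RefSeq has 4, and 21 bases after the start of Tbc1d4. The full NFI palindrome was not found in any of the 15 windows, and 0.0365% of all windows held it. A match is a string of letters only.

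Foxo1 and Tbc1d4 are substrates of AKT. FOXO1 is a transcription factor, and TBC1D4 is a GTPase-activating protein for Rab proteins on glucose transporter vesicles. Tbc1d4 had the largest rise with differentiation of the 10 genes in both genotypes, by 2.59 log2 in cultures labelled NFIA-Tg and 3.83 in WT cultures (adjusted p = 7.11e-13 and 4.19e-14). At day 7 it had 10.6, 11.9 and 12.3 FPKM in cultures labelled NFIA-Tg and 23.6, 23.2 and 21.6 FPKM in WT cultures, with no overlap (log2 difference -0.92 ± 0.07, adjusted p = 4.68e-08). Before differentiation, at day 0, it had 1.08, 0.995 and 1.23 FPKM in cultures labelled NFIA-Tg and 0.724, 0.575 and 0.727 FPKM in WT cultures, from 84 to 233 reads a library (log2 difference 0.33 ± 0.07, adjusted p = 0.000911); near 1 FPKM the added 1 shrinks the difference, and the ratio of means was 1.63. The responses to differentiation differed by -1.24 (adjusted p = 1.23e-07).

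In iWAT Tbc1d4 was higher in NFIA-Tg, with 7.201, 10.4 and 8.14 FPKM against 4.15, 5.79 and 5.496 FPKM in WT tissue and no overlap (log2 difference 0.64 ± 0.17, adjusted p = 0.0447). The call was lost on leaving out most single libraries: the adjusted p was 0.146 and 0.0947 without replicates 2 and 3 of NFIA-Tg, 0.0998, 0.0688 and 0.0980 without replicates 1, 2 and 3 of WT, and 0.0908 with no filter on low values. The genotype difference in iWAT exceeded that at day 7 by 1.55 (adjusted p = 2.38e-05). The stretch of its RefSeq window with the NFI half-site in capitals, chr14:101609154-101609183 of GRCm38.p6, minus strand, is shown because Tbc1d4 was one of the 3 genes called in NFIA-Tg iWAT.
Tbc1d4: gacctcagcttcTTGGCAaagctctgcgcc

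Foxo1 in iWAT had 23.1, 21.6 and 29.1 FPKM in NFIA-Tg and 16.01, 24.4 and 22.8 FPKM in WT tissue, with overlap (log2 difference 0.22 ± 0.18, adjusted p = 0.439). At day 7 it was lower in cultures labelled NFIA-Tg, with 14.4, 14.4 and 14.9 FPKM against 18.5, 18.002 and 17.3 FPKM in WT cultures (log2 difference -0.28 ± 0.07, adjusted p = 0.00159). At day 0 it was higher, with 6.17, 7.73 and 6.37 FPKM in cultures labelled NFIA-Tg against 4.66, 5.05 and 4.92 FPKM in WT cultures (log2 difference 0.40 ± 0.07, adjusted p = 0.000195). The genotypes did not overlap at either culture time, so the order of the genotypes was opposite at day 7 and day 0. Foxo1 rose with differentiation by 1.01 in cultures labelled NFIA-Tg and 1.69 in WT cultures, and the responses differed by -0.68 (adjusted p = 2.86e-05). The contrast of iWAT with day 7 was 0.50 (adjusted p = 0.0453), and that call was lost with median-of-ratios scaling (0.30, adjusted p = 0.240) and without any single library (adjusted p 0.05004 to 0.1) other than replicate 2 of NFIA-Tg iWAT or replicate 2 or 3 of WT iWAT.

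**Figure D4:**
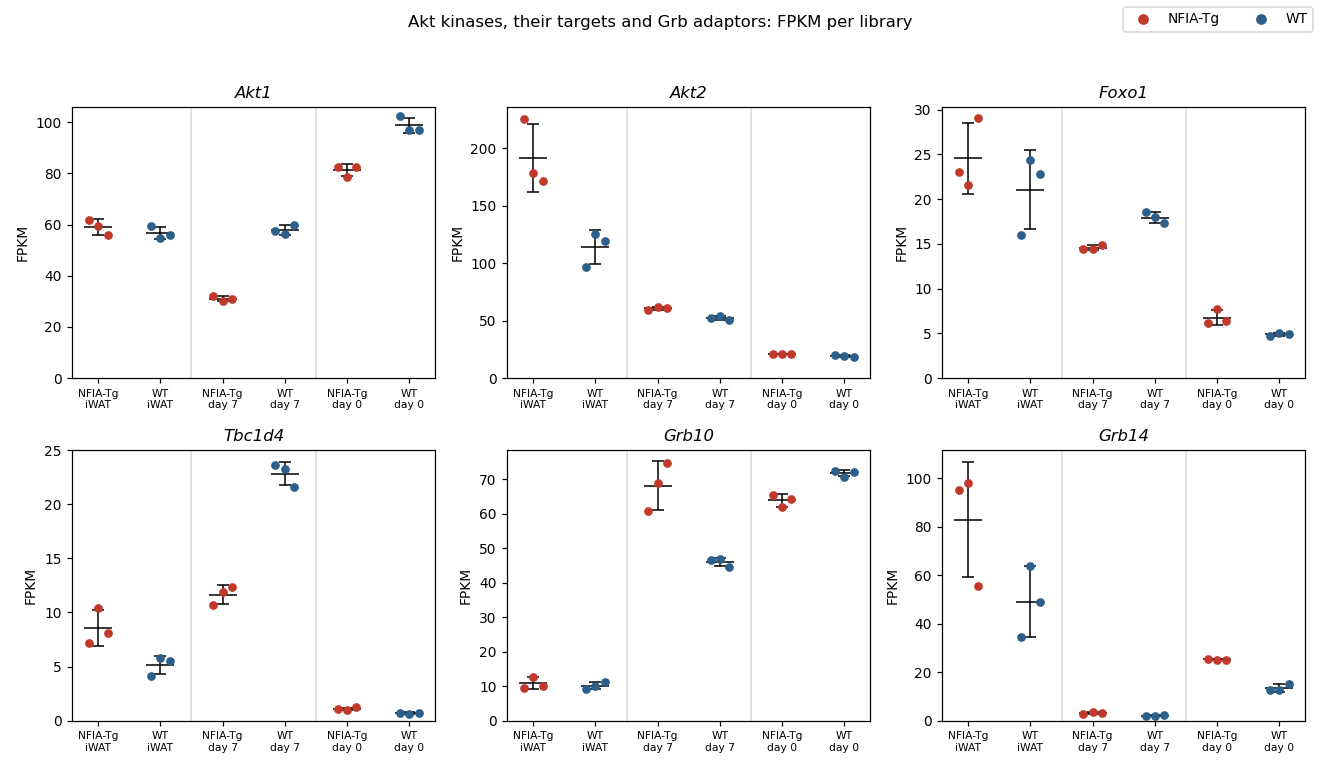
FPKM of Akt1, Akt2, Foxo1, Tbc1d4, Grb10 and Grb14 in each of the 18 samples, with NFIA-Tg left of WT within iWAT, day 7 and day 0; points are samples, bars the mean and SD of 3. Akt2 means are 192 and 114 FPKM in NFIA-Tg and WT iWAT, and Grb14 at day 7 is 2.84 to 3.40 FPKM (labelled NFIA-Tg) and 1.93 to 2.29 FPKM (WT); iWAT values come from another kind of table than the cultures.

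The inhibitory adaptors Grb10 and Grb14 were both higher at day 7 in cultures labelled NFIA-Tg. Grb10 had 60.7, 69.003 and 74.8 FPKM in these and 46.5, 46.8 and 44.7 FPKM in WT cultures, with no overlap (log2 difference 0.55 ± 0.06, adjusted p = 2.61e-06). At day 0 it had 65.5, 61.9 and 64.4 FPKM in cultures labelled NFIA-Tg and 72.5, 70.7 and 72.2 FPKM in WT cultures (log2 difference -0.17 ± 0.06, adjusted p = 0.0310), a call lost with median-of-ratios scaling (-0.12, adjusted p = 0.111) and without NFIA-Tg replicate 2 or 3 or any WT replicate (adjusted p 0.0523 to 0.1001). Grb10 fell with differentiation in WT cultures (log2 difference -0.63 ± 0.06, adjusted p = 6.12e-07), while in cultures labelled NFIA-Tg the difference was 0.09 (adjusted p = 0.195; 0.17, adjusted p = 0.00378, without NFIA-Tg day 7 replicate 1). These responses differed by 0.72 (adjusted p = 8.53e-06). In iWAT Grb10 had 9.48, 12.8 and 10.1 FPKM in NFIA-Tg and 9.15, 10.2 and 11.1 FPKM in WT tissue, with overlap (log2 difference 0.08 ± 0.14, adjusted p = 0.754). The iWAT difference minus the day 7 difference was -0.48 (adjusted p = 0.0207), and -0.41 without NFIA-Tg day 7 replicate 3 (adjusted p = 0.0564).

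Grb14 was low at day 7 in both genotypes. It had 2.84, 3.398 and 3.13 FPKM in cultures labelled NFIA-Tg and 1.93, 2.14 and 2.29 FPKM in WT cultures, from 90 to 176 reads a library (log2 difference 0.40 ± 0.07, adjusted p = 0.000254). Day 0 levels were 25.5, 25.1 and 25.1 FPKM in cultures labelled NFIA-Tg and 12.6, 12.6 and 15.2 FPKM in WT cultures (log2 difference 0.86 ± 0.07, adjusted p = 6.59e-07), a ratio of means of 1.87. It did not overlap between genotypes at either time, and every day 7 sample was below every day 0 sample. Grb14 fell by 2.67 log2 in cultures labelled NFIA-Tg and by 2.21 in WT cultures, a difference in response of -0.46 (adjusted p = 0.00162; -0.34, adjusted p = 0.0689, by limma-voom on the recovered reads). In iWAT it had 95.1, 97.98 and 55.7 FPKM in NFIA-Tg and 34.5, 63.7 and 49.1 FPKM in WT tissue. Replicate 3 of NFIA-Tg lay inside the WT range, and the difference of 0.74 ± 0.26 was not called (limma, adjusted p = 0.109; 1.00, adjusted p = 0.0487, without that replicate). The contrast of iWAT with day 7 was 0.34 (95% interval -0.34 to 1.02, adjusted p = 0.380).

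Grb14 over Grb10 was 10.03, 7.65 and 5.499 in NFIA-Tg iWAT and 3.77, 6.26 and 4.41 in WT iWAT (log2 difference 0.67, exact permutation p = 0.20). At day 0 the log2 difference in this ratio was 1.08 without overlap (exact permutation p = 0.10, the smallest possible for 3 against 3), with 0.389, 0.406 and 0.3899 in cultures labelled NFIA-Tg and 0.174, 0.179 and 0.211 in WT cultures. At day 7 the ratio was 0.0468, 0.0493 and 0.0418 in cultures labelled NFIA-Tg and 0.0415, 0.0457 and 0.0513 in WT cultures, and the ranges overlapped (exact permutation p = 1).

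Differentiation as a whole was called for 9 of the 10 genes in cultures labelled NFIA-Tg (5 higher, 4 lower at day 7) and for all 10 in WT cultures (7 higher, 3 lower). Of all genes, 45.7% and 41.5% were called higher and lower in cultures labelled NFIA-Tg (87.2% in all), and 46.2% and 35.4% in WT cultures (81.6% in all). The median of the 10 genes was 0.55 and 1.31 log2, against 0.05 and 0.09 for all genes tested. Irs1 and Pik3r1 were called in opposite directions in the 2 genotypes. The response differed by genotype for 8 of the 10 genes, 1 higher and 7 lower in the cultures labelled NFIA-Tg, where 29.5% and 42.6% of all genes were called (72.1% in either direction). The iWAT difference was called above the day 7 difference for 7 genes and below it for 1, where 35.8% and 18.5% of 13101 genes were called (54.3% in either direction). With median-of-ratios scaling the split over all genes in that contrast was 3305 higher and 3325 lower, against 4690 higher and 2430 lower without it, and its all-gene median was 0.003 with that scaling and 0.18 without it.

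**Figure D5:**
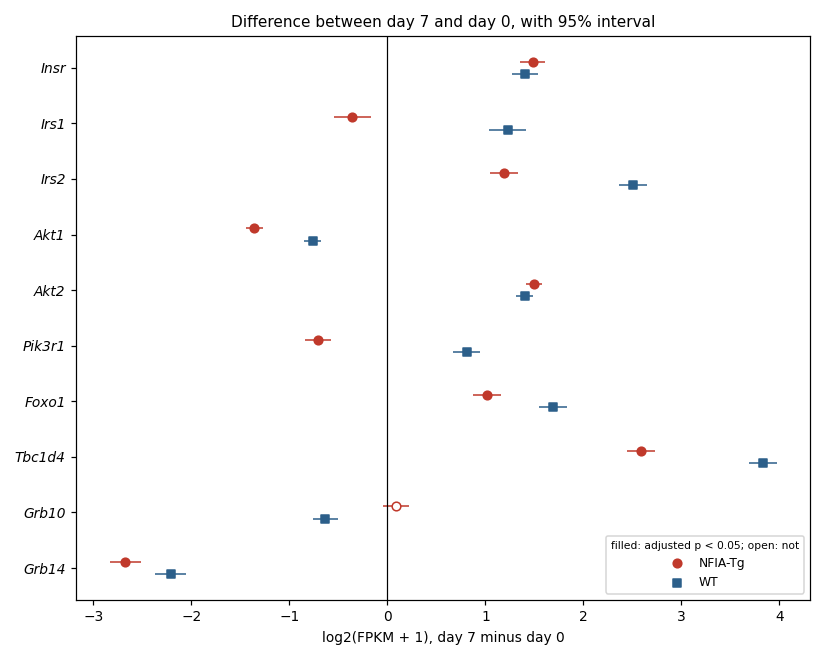
Difference of day 7 from day 0 on the log2(FPKM + 1) scale for each of the 10 genes, in cultures labelled NFIA-Tg and in WT cultures; bars are 95% confidence intervals from limma and filled symbols mark adjusted p under 0.05. Irs1 (-0.36 and 1.23) and Pik3r1 (-0.71 and 0.81) lie on opposite sides of 0, and Insr (1.48 and 1.40) and Akt2 (1.5 and 1.40) lie close together.

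The order of the 4 culture groups by mean level fell into a few kinds. WT day 7 cultures were highest for Irs1, Irs2, Pik3r1, Foxo1 and Tbc1d4. For Irs2, Foxo1 and Tbc1d4 the order was WT day 7, NFIA-Tg day 7, NFIA-Tg day 0 and WT day 0, with no overlap between neighbours. For Irs1 and Pik3r1 the lowest group was day 7 labelled NFIA-Tg, and the day 0 groups between it and WT day 7 overlapped each other. Akt1 ran WT day 0, NFIA-Tg day 0, WT day 7 and NFIA-Tg day 7, and Akt2 ran NFIA-Tg day 7, WT day 7, NFIA-Tg day 0 and WT day 0, again without overlap between neighbours. Grb14 was highest in NFIA-Tg day 0 cultures (mean 25.2 FPKM) and lowest in WT day 7 cultures (2.12 FPKM). Grb10 means of 68.2 FPKM at day 7 (labelled NFIA-Tg), 71.8 at day 0 (WT) and 63.9 at day 0 (labelled NFIA-Tg) had overlapping neighbours, and WT day 7 cultures were lowest at 45.98 FPKM.

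Other genes of the pathway were counted in a list of 50 that leaves out the 10 described so far; the genes named are the called ones with the smallest adjusted p in each direction, with log2 differences in parentheses. In iWAT 45 passed the filter on low values, of which NFIA-Tg had 1 called higher and 1 lower (5.96% and 5.44% of all genes), with a median of 0.05 log2, as over all genes. Rhoq averaged 49.998 ± 2.51 FPKM in NFIA-Tg and 34.03 ± 5.61 FPKM in WT (log2 difference 0.55, adjusted p = 0.0333) (SD, n = 3 each). Pik3cb, a catalytic subunit of phosphoinositide 3-kinase, averaged 9.37 ± 2.57 FPKM in NFIA-Tg and 17.02 ± 3.69 FPKM in WT (log2 difference -0.81, adjusted p = 0.0475). On leaving out 1 library at a time the adjusted p ran over 0.0389 to 0.109 for Rhoq and 0.0371 to 0.146 for Pik3cb, with Rhoq lost without any NFIA-Tg replicate or WT replicate 3, and Pik3cb lost without replicate 1 or 3 of NFIA-Tg or 2 or 3 of WT. Rhoq was also lost with no filter (adjusted p = 0.0656), and Pik3cb with a pseudocount of 0.1 (0.0522), no filter (0.104) and no trend (0.0581). At day 7, 14 of 47 were called higher and 29 lower in cultures labelled NFIA-Tg (29.8% and 51.1% of all genes), with a median of -0.30 beside -0.17 for all genes. Trib3, a pseudokinase that binds AKT, averaged 238 ± 11.04 FPKM in cultures labelled NFIA-Tg and 27.6 ± 1.37 FPKM in WT cultures (log2 difference 3.07, adjusted p = 2.82e-13), and its difference was the called rise with the smallest adjusted p. Rhoq (1.53) and Rab10 (0.51), a Rab GTPase of transporter vesicles, followed. Phlpp2 (-1.14), a phosphatase of AKT, Ptpn1 (-1.07), a phosphatase of the receptor, and Cbl (-1.13), an adaptor, fell with the smallest adjusted p.

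At day 0, 15 of the 47 were called higher and 18 lower (28.1% and 34.9% of all genes), with a median of 0.00 log2 beside -0.03 for all genes. Those with the smallest adjusted p were Pde3b (2.13), a cAMP phosphodiesterase activated downstream of AKT, Irs3 (1.01), a substrate, and Pik3r3 (0.43) among rises, and Enpp1 (-1.21), Tbc1d1 (-0.62) and Phlpp2 (-0.41) among falls. With differentiation 20 rose and 23 fell in cultures labelled NFIA-Tg (45.7% and 41.5% of all genes), and 19 rose and 18 fell in WT cultures (46.2% and 35.4% of all genes). In both, Slc2a4, the insulin-responsive glucose transporter, and Sh2b2 were among the rises with the smallest adjusted p, and Igf1r, the receptor for insulin-like growth factor 1, Enpp1 and Socs3 led the falls. Slc2a4 rose by 6.13 and 5.97, and Igf1r differed by -2.44 and -1.58, in cultures labelled NFIA-Tg and WT cultures. Slc2a4 averaged only 0.198 FPKM (labelled NFIA-Tg) and 0.105 FPKM (WT) at day 0, so the added 1 shrinks its rises. Its ratios of means were 419 in cultures labelled NFIA-Tg and 652 in WT cultures, the opposite order. The responses differed by genotype for 11 genes upward and 27 downward (29.5% and 42.6% of all genes), led by Trib3 (3.10), Rhoq (1.94) and Eif4ebp1 (0.82) upward and by Pik3r3 (-1.09), Grb2 (-0.86) and Gab1 (-1.14) downward. The iWAT difference was above the day 7 difference for 20 of 48 genes and below it for 7 (35.8% and 18.5% of all genes), led by Pik3r2 (1.06), Grb2 (0.82) and Ptpn1 (0.83) above and by Trib3 (-2.90), Rhoq (-0.98) and Inpp4b (-0.94) below. The count below was 12 with median-of-ratios scaling and 4 without replicate 3 of the day 7 cultures labelled NFIA-Tg. Inpp4b was under the filter in the separate fits: it averaged 0.825 ± 0.321 FPKM in NFIA-Tg iWAT and 0.709 ± 0.281 FPKM in WT iWAT, and 1.07 ± 0.0845 FPKM in day 7 cultures labelled NFIA-Tg and 0.0105 ± 0.00719 FPKM in WT cultures. It was tested in 9 of the 12 fits that leave out 1 library.

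A list of 20 genes known as targets of FoxO factors was counted beside Foxo1. In iWAT, where Foxo1 was not called, 1 of 18 was called higher and 1 lower (5.96% and 5.44% of all genes): Ccng2, a cyclin, averaged 27.6 ± 3.03 FPKM in NFIA-Tg and 19.02 ± 2.68 FPKM in WT (log2 difference 0.52, adjusted p = 0.0426), and Gadd45a, a DNA-damage response gene, averaged 3.999 ± 0.444 FPKM in NFIA-Tg and 7.94 ± 1.09 FPKM in WT (log2 difference -0.83, adjusted p = 0.00888). On leaving out 1 library at a time Ccng2 was called in 0 of 6 fits (adjusted p 0.0532 to 0.104), and Gadd45a in 6 of 6 (0.0155 to 0.0392). Ccng2 was also lost with no filter (adjusted p = 0.0786), median-of-ratios scaling (0.0506) and no trend (0.0574). At day 7, where Foxo1 was lower, 7 of 17 were called higher and 6 lower in cultures labelled NFIA-Tg (29.8% and 51.1% of all genes), with a median of 0.09 beside -0.17 for all genes. The rises were led by Gadd45a (1.87), Bcl6 (1.41) and Fbxo32 (1.22), and the falls by Sesn3 (-0.63), Cat (-0.41), the gene of catalase, and Klf2 (-0.75). At day 0, where Foxo1 was higher, 8 were called higher and 4 lower (28.1% and 34.9% of all genes), led by Bcl6 (0.80), Cdkn1a (0.96) and Cat (0.52) among rises and by Eif4ebp1 (-0.43), Klf2 (-0.54) and Fbxo32 (-0.23) among falls. The counts therefore ran in both directions at each culture time.

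With differentiation 10 of the 17 FoxO targets rose and 6 fell in cultures labelled NFIA-Tg, and 9 rose and 4 fell in WT cultures, beside all-gene shares of 45.7% and 41.5% in cultures labelled NFIA-Tg and 46.2% and 35.4% in WT cultures. Pnpla2, the gene of adipose triglyceride lipase, rose by 6.23 and 6.55, Cat by 2.67 and 3.61, and Pdk4, an inhibitor of pyruvate dehydrogenase, by 3.18 and 2.82. The falls with the smallest adjusted p were Sesn3 (-1.28), Cdkn1a (-0.93) and Klf2 (-1.64) in cultures labelled NFIA-Tg, and Fbxo32 (-1.32), Klf2 (-1.43) and Gadd45a (-0.48) in WT cultures. The responses differed by genotype for 7 genes upward, led by Gadd45a (1.91), Fbxo32 (1.45) and Bcl6 (0.62), and for 7 downward (29.5% and 42.6% of all genes), led by Sesn3 (-1.18), Cat (-0.94) and Cdkn1a (-0.83). The iWAT difference was called above the day 7 difference for 4 of 18 and below it for 4 (35.8% and 18.5% of all genes), led by Ccng2 (0.85), Pck1 (0.95) and Cat (0.79) above and by Gadd45a (-2.70), Fbxo32 (-1.38) and Eif4ebp1 (-0.71) below. Eif4ebp1, a repressor of translation initiation, stands in both lists.

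Genes with the most similar course over the 12 culture samples were found by the root mean square difference of log2(FPKM + 1), each gene centred on its own mean. The search ran among the 12553 genes tested, with symbols of predicted genes (such as Gm or Rik) left out. They were Mocs2 (0.0762) and Opa1 (0.0833) for Insr, Acot7 (0.107) and Map7d3 (0.123) for Irs1, Strip2 (0.0816) and G6pdx (0.103) for Irs2 and Zfp667 (0.104) and Sik3 (0.109) for Pik3r1. They were Tcf3 (0.0644) for Akt1, Blvrb (0.0621) and Trim67 (0.0664) for Akt2, Clmn (0.0918) and Slc22a5 (0.0965) for Foxo1 and Mpc2 (0.124) and Arhgef37 (0.176) for Tbc1d4. For the adaptors they were Parp4 (0.0664) and Cdc42bpa (0.0705) for Grb10 and Acvrl1 (0.144) and Basp1 (0.154) for Grb14. Within the 10 genes, Insr lay nearest to Akt2 (0.115) and Irs1 nearest to Pik3r1 (0.214). These samples share 4 groups, so the values describe the order of 4 group levels more than 12 separate measurements.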

How the data were processed

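Expression was measured in 18 samples, which their labels put into 6 groups of 3. The deposited files hold 1 FPKM value per gene, per the file headers. Polyadenylated RNA, isolated with Trizol and RNeasy, went into a stranded kit, per the labels' protocols. STAR 2.7.8a, StringTie 2.1.1 and build mm9 appear in the submitters' processing notes, and the rule for assigning reads to genes was not given there. Among the iWAT entries, 410 had a symbol in common with another (180 symbols), and their values were added up. Culture values multiplied by gene length and by a total fitted for each library were whole reads in 100% of cases (tolerance 0.01). That total was fitted so that the products came out whole. The iWAT values gave no reads.

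Tests used limma 3.58.1 under R 4.3.3 on log2(FPKM + 1), with the spread modelled as a trend on the mean. A gene was tested if 3 or more fitted samples reached 1 FPKM. P-values were Benjamini-Hochberg adjusted over all genes tested, with a threshold of 0.05. Fits used 6 iWAT samples, 12 culture samples, or 12 for iWAT against day 7. The fit for iWAT against day 7 gave each gene 1 spread for tissue and cultures together. The added 1 makes differences of low genes look smaller. The procedure was tested on simulated data. Ratios within libraries were compared by two-sided exact permutation tests. The 10 genes and the gene lists were chosen with earlier results of these data known. Named list genes are the 3 called ones with the smallest adjusted p in each direction, and for each of the 10 genes the 2 closest in course are given; some genes these rules name are not reported here. Alternatives were a pseudocount of 0.1, no filter, median-of-ratios scaling, no trend, a replicate block, limma-voom on recovered reads, leaving out each library and, chosen after seeing the data, fits to own samples only. Promoter windows came from RefSeq on GRCm38.p6, and coordinates of build mm9 were not used.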

Additional observations from a re-analysis of the deposited data

Results flagged for a closer look

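The response to differentiation differed between the genotypes, by the test of the difference itself, for 8 of the 10 genes. The log2 difference between responses was -1.58 for Irs1 (-0.36 in cultures labelled NFIA-Tg and 1.23 in WT cultures), -1.52 for Pik3r1 (-0.71 in cultures labelled NFIA-Tg and 0.81 in WT cultures) and -1.32 for Irs2 (1.19 in cultures labelled NFIA-Tg and 2.51 in WT cultures). It was -1.24 for Tbc1d4 (2.59 in cultures labelled NFIA-Tg and 3.83 in WT cultures), -0.68 for Foxo1 (1.01 in cultures labelled NFIA-Tg and 1.69 in WT cultures) and -0.60 for Akt1 (-1.36 in cultures labelled NFIA-Tg and -0.76 in WT cultures). For the adaptors it was 0.72 for Grb10 (0.09 in cultures labelled NFIA-Tg and -0.63 in WT cultures) and -0.46 for Grb14 (-2.67 in cultures labelled NFIA-Tg and -2.21 in WT cultures). The Grb14 call was lost by limma-voom on the recovered reads (-0.34, adjusted p = 0.0689). Of all genes tested 72.1% were called in this contrast, so a member's call is common there. All 9 mature adipocyte markers tested (median -1.63) and all 8 preadipocyte markers tested (median -2.55) were called lower in it. The median was -0.64 for the 10 genes and -0.11 for all genes, of which 42.6% were called lower. The part of these cells in the responses of the 10 genes was not tested. The contrast takes the day 7 labels as given, although Nfia was lower in the day 7 cultures labelled NFIA-Tg than in WT cultures, and exchanged labels would give other values.

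The genotype difference also differed between iWAT and day 7 cultures, by the test of that difference, for 8 of the 10 genes. The contrast was 2.34 for Pik3r1 (0.83 in iWAT and -1.51 at day 7), 2.20 for Irs1 (0.78 in iWAT and -1.42 at day 7) and 1.55 for Tbc1d4 (0.64 in iWAT and -0.92 at day 7). It was 1.06 for Irs2 (-0.03 in iWAT and -1.09 at day 7), 0.93 for Akt1 (0.05 in iWAT and -0.87 at day 7) and 0.53 for Akt2 (0.74 in iWAT and 0.21 at day 7). It was 0.50 for Foxo1 (0.22 in iWAT and -0.28 at day 7) and -0.48 for Grb10 (0.08 in iWAT and 0.55 at day 7). With median-of-ratios scaling Akt2 (adjusted p = 0.101) and Foxo1 (0.240) were no longer called, and the Foxo1 call was also lost without most single libraries. Of all genes tested 54.3% were called in this contrast, and Nfia itself was higher in NFIA-Tg iWAT and lower in day 7 cultures labelled NFIA-Tg. Tissue and culture tables were normalized separately, so their levels were not compared. The fit gave each gene 1 spread for tissue and cultures together, although the SD of Pik3r1 was 11.9 FPKM in NFIA-Tg iWAT and 0.76 FPKM in WT day 7 cultures. For Akt1 the standard error of the contrast (0.087) was below that of the iWAT difference alone (0.092). Adjusted p-values of this contrast can therefore be too small, also for the borderline calls of Akt2, Foxo1 and Grb10.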

How the results depend on the processing

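No direction of a called result was reversed under any alternative run. With no filter on low values, genotype in iWAT gave 934 called genes instead of 1413, and 1 of the 10 genes was called higher instead of 3. With median-of-ratios scaling, 1 of the 10 instead of 2 was called lower at day 0, and 2 instead of 1 were called higher for genotype by differentiation. Leaving out 1 library at a time, genotype in iWAT gave 617 to 1262 genes and 1 to 4 of the 10 called higher. The 10 genes called lower ran over 1 to 2 at day 0 and 0 to 1 for iWAT against day 7, and those called higher over 1 to 2 for genotype by differentiation. The cause was not tested. The log2 difference between genotypes in Irs2 over Irs1 in iWAT ran from -1.46 to -0.63. Same-numbered samples deviated together in 2 of 3 iWAT pairs (r over 0.1, range 0.00719 to 0.115) and 1 of 18 culture pairs (-0.108 to 0.156). In all, 4 of 6 iWAT and 2 of 12 culture samples correlated best with their own number. The labels do not say that equal numbers mark pairs, so the main fits had no block. Whether they do in iWAT was not tested further. With the replicate number as a block, 1282 genes were called for genotype in iWAT, 10136 at day 7, 7822 at day 0, 9027 for genotype by differentiation and 7097 for iWAT against day 7, and in iWAT Irs1 was no longer called (adjusted p = 0.0569) while Pik3r1 was (adjusted p = 0.0172). The pseudocount, the fit without a trend, the fits to own samples only (chosen after seeing the data) and limma-voom left the counts of called genes over all genes tested within 1.5 times. In iWAT the 1 wider pathway gene called lower became 0 with a pseudocount of 0.1, no trend or the block, and the 1 FoxO target called higher became 0 with no filter, scaling, no trend or the block. No test was run on iWAT counts because depth there is unknown, and at day 0 Tbc1d4 and at day 7 Grb14 rest on few reads.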
